A study of Mus musculus and Sus scrofa with 30 samples.

Results

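Rosiglitazone was compared with its vehicle in porcine dedifferentiated fat (DFAT) cells by bulk RNA-seq, with 3 libraries per group, which are 6 of the 30 libraries of the series. DFAT cells are mature fat cells that have lost their lipid in culture and returned to a dividing, fibroblast-like state; here they came from pig subcutaneous fat. Both groups were harvested on day 5 of adipogenic induction in the same medium, which held 0.5 µM dexamethasone (a glucocorticoid), 12.5 µM IBMX (an inhibitor of phosphodiesterases that raises cAMP), 20 µM biotin, 10 µM pantothenate and 2% serum, with no insulin named. The vehicle group received DMSO and the other group rosiglitazone, whose dose is not given in the sources used here. Other DFAT libraries of the series were treated with dicoumarol, magnolol or both, and the same 5 groups exist for mouse 3T3-L1 cells, a line of embryonic fibroblasts that can form adipocytes. The labels name neither the animals nor separate cultures. The p-values rest on the spread between libraries within all 5 DFAT groups, which may be technical.

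Rosiglitazone is a thiazolidinedione that binds and activates PPARγ, the nuclear receptor that pairs with RXR on DNA and drives the fat cell gene programme together with C/EBPα. Its known direct targets include genes of fatty acid uptake, lipid droplet coating, lipolysis, glycerol supply and the secreted hormone adiponectin. In preadipocytes the receptor is present at a low level and rises as the cells differentiate.

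The 6 libraries had an estimated depth of 44.8 M to 70.1 M reads, and 14819 genes had a mean of at least 10 normalized counts over the 15 DFAT libraries and were tested. A normalized count is the authors' count divided by a size factor per library. Rosiglitazone replicate 2 stood apart from the other rosiglitazone libraries: on the second principal component of the DFAT libraries it lay at −39.04, against −11.86 and −10.63, and its share of mitochondrial counts was the lowest of the 6, 6.85%, against 9.58% to 10.8% in the others. For many gene lists the counts of called genes without it are also given. Of 7 adipocyte markers 6 were higher, and their summed level was 16192 to 19244 in the vehicle libraries and 60342 to 63683 with rosiglitazone. All 6 stromal markers listed were detected in both groups and 2 of them were lower. Summed, they lay at 1372188 to 1474997 with vehicle and 1182332 to 1254857 with rosiglitazone. Most of these sums was COL1A1, at 970133 to 1084530 with vehicle and 788290 to 895681 with rosiglitazone, which was not called. VIM, the next most abundant, overlapped, at 273545 to 297609 and 282153 to 330514. The endothelial markers TIE1, KDR and CDH5 and the leukocyte markers PTPRC and CD3E were listed at 0 in all 6 libraries. Other markers of these types were detected. Over the 6 libraries the endothelial PECAM1 lay at 158 to 236 and ESAM at 34.6 to 50.5. The leukocyte CD14 lay at 619 to 933 and CD68 at 47.9 to 77.8. In bulk RNA, a larger share of fat-forming cells and more RNA of a gene per cell cannot be told apart.

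Many genes of the lipid droplet and of fatty acid handling rose with rosiglitazone. With a limma fit over all DFAT groups, 10.8% of the tested genes were called at an adjusted p under 0.05, 5.8% higher and 5.02% lower; over every tested gene the median log2 change was −0.01. The groups did not overlap for 10.5% of genes with rosiglitazone higher and 10.9% with it lower. Log2 fold changes are of log2(value + 1), a scale on which low genes change by too little, and ± is the standard error (SE). Values of single libraries are in the order of replicates 1, 2 and 3, and a range runs from the lowest to the highest library. Of the lipid droplet genes 8 of 11 tested were higher and 0 lower, with a median log2 fold change of 1.07. Of the genes of fatty acid uptake and binding 9 of 16 were higher and 0 lower, with a median of 0.42; 1 was lower without rosiglitazone replicate 2.

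PLIN1, the perilipin that guards the droplet of mature adipocytes against lipases (chromosome 7, 55236348 to 55250797, minus strand in the deposited coordinates, with ends made inclusive and on a pig build that the sources used here do not name), had 130.2, 155 and 135 normalized counts in the vehicle libraries and 5128, 4331 and 4589 with rosiglitazone. No library of one group reached the other. That is a 33.4-fold ratio of means (log2 fold change 5.05 ± 0.10 (SE), adjusted p = 2.23e-15, limma). PLIN4, a coat protein of small droplets, had 217, 219 and 177 with vehicle and 6486, 5054 and 4960 with rosiglitazone (log2 fold change 4.74 ± 0.10). PLIN2, which coats droplets in most cell types, rose from 3863–4128 to 12762–14666 (log2 fold change 1.75 ± 0.07). CIDEC, which fuses droplets into larger ones, rose from 289.5–386 to 2838–3406 (log2 fold change 3.26 ± 0.14). The groups did not overlap for any of these coat and fusion genes. PLIN5, a coat protein of oxidative tissues, lay at 0, 1.87 and 3.05 with vehicle and at 20.5, 24.0 and 18.3 with rosiglitazone, a low count in both groups. HILPDA, an inhibitor of the lipase ATGL, and FITM2, which partitions fat into droplets, rose by log2 fold changes of 1.04 ± 0.10 and 0.52 ± 0.06.

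**Figure D1:**
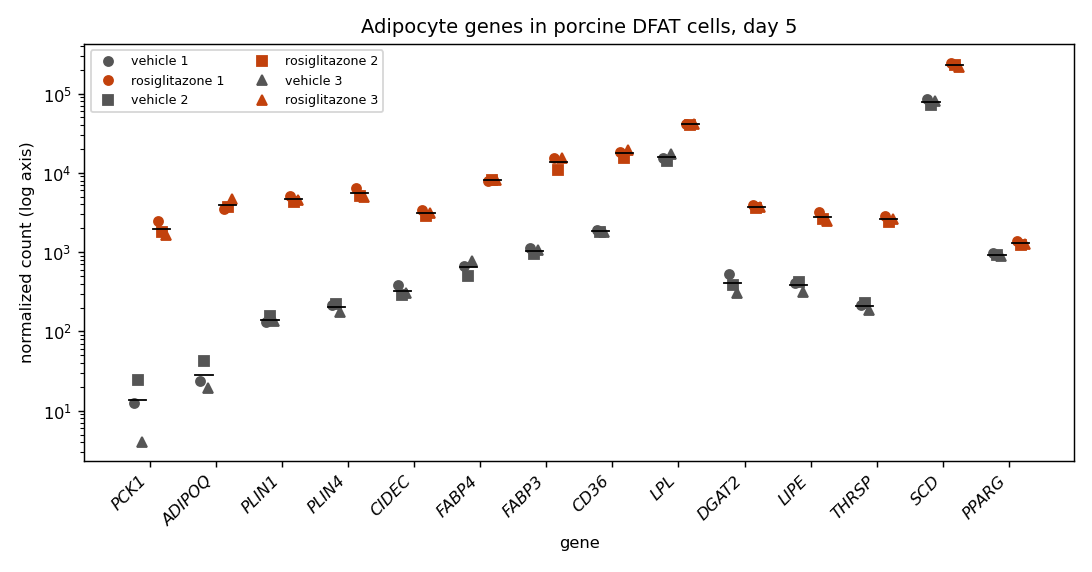
Normalized counts (log axis) of 14 adipocyte genes in each vehicle (grey) and rosiglitazone (orange) library of the DFAT cells; symbols mark the replicate and black lines the group means. For PCK1 the vehicle libraries lie between 4.07 and 24.3 and the rosiglitazone libraries between 1652 and 2445, whereas for PPARG the groups lie close together, at 901 to 969 and 1234 to 1378.

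Genes of several steps of fatty acid uptake rose. LPL, the lipase that frees fatty acids from lipoproteins, had 15527, 14288 and 17096 normalized counts with vehicle and 40728, 40073 and 41842 with rosiglitazone (log2 fold change 1.39 ± 0.08 (SE), adjusted p = 2.23e-09). CD36, the transporter that brings fatty acids across the membrane, had 1901, 1787 and 1785 with vehicle and 18533, 15313 and 19226 with rosiglitazone (log2 fold change 3.27 ± 0.10). Of the intracellular carriers, FABP4, the adipocyte form, had 673, 501 and 779 with vehicle and 7975, 8167 and 8134 with rosiglitazone (log2 fold change 3.66 ± 0.12), with the 3 rosiglitazone libraries within a narrow band. FABP3, the form known from heart and muscle, rose by a like amount, from 941–1138 to 10744–15372 (log2 fold change 3.71 ± 0.12). FABP5 rose from 468–574 to 1502–1548 (log2 fold change 1.59 ± 0.09). ACSL1, which activates fatty acids to their CoA esters, rose by 1.12 ± 0.06 and VLDLR, a lipoprotein receptor, by 0.45 ± 0.07 on the log2 scale. ANGPTL4, a secreted inhibitor of LPL and a classic PPAR target, rose from 1742–2521 to 7139–10068 (log2 fold change 1.91 ± 0.15).

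Of 14 genes of triglyceride synthesis 4 were higher and 0 lower, with a median of 0.10. DGAT2, which adds the third fatty acid, had 528, 380.1 and 308 normalized counts with vehicle and 3931, 3621 and 3716 with rosiglitazone (log2 fold change 3.24 ± 0.14 (SE), adjusted p = 3.99e-11). GPAT4, an acyltransferase of the first step, rose by 0.59 ± 0.06 on the log2 scale. The other 2 called genes, LPIN1 and LPIN2, had small changes, 0.31 and 0.18, and lost their calls without vehicle replicate 2, vehicle replicate 3 or rosiglitazone replicate 1, which leaves 2 genes called in each case; LPIN2 also lost its call without rosiglitazone replicate 2 (0.0901) or rosiglitazone replicate 3 (0.072). Of 9 genes of lipolysis 6 were higher and 0 lower, with a median of 0.57. LIPE, hormone-sensitive lipase, had 404, 426 and 314 with vehicle and 3199, 2612 and 2467 with rosiglitazone (log2 fold change 2.86 ± 0.12 (SE), adjusted p = 2.89e-11). MGLL, which finishes triglyceride breakdown, rose by 1.12 ± 0.08, PNPLA2, the lipase ATGL that starts it, by 0.57 ± 0.12, and ABHD5, the co-activator of ATGL, by 0.37 ± 0.06. PDE3B, the phosphodiesterase through which insulin restrains lipolysis, rose by 1.56 ± 0.15, and PRKAR2B, a regulatory subunit of protein kinase A, by 0.80 ± 0.05.

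Of 19 genes of de novo lipogenesis 5 were higher and 1 lower, with a median of 0.06, or −0.015 without rosiglitazone replicate 2. The lower gene, ACACB (adjusted p = 0.0343), was no longer called when vehicle replicate 1 (0.124), vehicle replicate 2 (0.0952), rosiglitazone replicate 1 (0.0838) or rosiglitazone replicate 2 (0.0775) was left out. Its call was also lost with only the compared groups fitted (0.134). SCD, the desaturase that makes monounsaturated fatty acids, had 85342, 70792 and 80714 normalized counts with vehicle and 243352, 228144 and 213654 with rosiglitazone (log2 fold change 1.53 ± 0.09 (SE), adjusted p = 1.38e-09). ELOVL6, which lengthens palmitate to stearate, had 4554, 4041 and 4654 with vehicle and 11230, 11722 and 11916 with rosiglitazone (log2 fold change 1.40 ± 0.07). THRSP, known as Spot 14, rose from 185–229 to 2392–2817 (log2 fold change 3.62 ± 0.11), and MLXIPL, the glucose-sensing factor ChREBP, from 74.3–116 to 186–289.6 (log2 fold change 1.23 ± 0.20). FASN, the synthase itself, did not pass the test, with 68734, 54626 and 45112 with vehicle and 61339, 57116 and 42152 with rosiglitazone (log2 fold change −0.07 ± 0.20, adjusted p = 0.903), and its groups overlapped. ACLY, ACACA and SREBF1 did not pass either.

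PCK1, the cytosolic carboxykinase of glyceroneogenesis (chromosome 17, 57930432 to 57936522, plus strand), had 12.7, 24.3 and 4.07 normalized counts with vehicle and 2445, 1804 and 1652 with rosiglitazone. That is a 144-fold ratio of means (log2 fold change 7.33 ± 0.49 (SE), adjusted p = 1.05e-08). The vehicle libraries were near the lower end of the measured range and varied among themselves, and all rosiglitazone libraries lay far above them. Of 14 genes of this list 7 were higher and 1 lower. GK, glycerol kinase, had 2054, 1974 and 1869 with vehicle and 6100, 4454 and 5211 with rosiglitazone (log2 fold change 1.41 ± 0.10). PCK2, the mitochondrial carboxykinase, rose by 0.72 ± 0.07 on the log2 scale. PDK4, which blocks pyruvate dehydrogenase and spares glucose, rose from 10.1–16.3 to 49.9–65.4 (log2 fold change 2.09 ± 0.35), and PDK1 by 0.55 ± 0.10. PC, pyruvate carboxylase, was the called fall, −0.55 ± 0.13, with an adjusted p of 0.00699 that became 0.0503 without vehicle replicate 1. Without rosiglitazone replicate 2, 3 genes of this list were lower.

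The genes of PPARγ and of C/EBPα rose by less than 2-fold. PPARG had 969, 909.7 and 901 normalized counts with vehicle and 1378, 1234 and 1280 with rosiglitazone (log2 fold change 0.48 ± 0.07 (SE), adjusted p = 9.83e-05), and CEBPA had 455, 517 and 401 with vehicle and 914, 804 and 621 with rosiglitazone (log2 fold change 0.76 ± 0.14). Both sets of libraries were separate, at ratios of means of 1.40 and 1.70. PPARD, the broadly expressed PPAR, rose by 0.53 ± 0.10, and KLF5, an early adipogenic factor, by 0.71 ± 0.16. EBF1, a factor of preadipocytes and adipocytes, fell from 10161–11093 to 6825–7708 (log2 fold change −0.53 ± 0.06). PPARGC1A, the coactivator PGC-1α of mitochondrial genes, was hardly detected with vehicle, at 5.92, 0 and 4.07, and lay at 64.1, 73.6 and 57.0 with rosiglitazone (log2 fold change 4.32 ± 0.54, adjusted p = 2.61e-05). It lies under the mean used to choose named genes and was picked after its values were seen. In all, 8 of 22 adipogenic regulators were higher and 3 lower; without vehicle replicate 1 the counts were 5 and 1, 1 was lower without rosiglitazone replicate 3, and without rosiglitazone replicate 2 they were 6 and 4. CEBPB, RXRA, NR1H3 and ZNF423 did not pass the test.

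Of 14 secreted factors of fat and their receptors 8 were higher and 0 lower, with a median of 0.59. ADIPOQ, adiponectin (chromosome 13, 124633685 to 124646646, plus strand), had 23.7, 42.0 and 19.3 normalized counts with vehicle and 3534, 3688 and 4717 with rosiglitazone, a 140.4-fold ratio of means (log2 fold change 7.15 ± 0.22 (SE), adjusted p = 2.84e-13). ADIPOR2, one of its receptors, rose by 0.84 ± 0.07. KLB, β-klotho, the co-receptor for FGF21, had 38.0, 82.2 and 54.0 with vehicle and 272, 243 and 306 with rosiglitazone (log2 fold change 2.28 ± 0.21). RBP4, the retinol carrier of plasma, had 8.45, 15.9 and 13.2 with vehicle and 33.3, 44.5 and 53.0 with rosiglitazone (log2 fold change 1.74 ± 0.31). LEP, leptin, stayed at low counts, 11.0, 7.47 and 10.2 with vehicle and 21.8, 12.0 and 6.11 with rosiglitazone, with overlapping groups (log2 fold change 0.30 ± 0.38, adjusted p = 0.748). CFD, adipsin, did not pass the test.

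SLC2A4, the insulin-responsive transporter GLUT4, had 2.54, 4.67 and 2.04 normalized counts with vehicle and 34.6, 27.4 and 19.4 with rosiglitazone (log2 fold change 2.80 ± 0.33, adjusted p = 1.34e-05). TRARG1, a regulator of GLUT4 vesicles, had 452, 466 and 361 with vehicle and 3720, 3090 and 3179 with rosiglitazone (log2 fold change 2.97 ± 0.11). For both genes every rosiglitazone library lay above every vehicle library, though GLUT4 remained at a low count. IRS2, a docking protein of the insulin receptor, rose by 0.64 ± 0.06, and PIK3R1, the regulatory subunit of PI3-kinase, fell (log2 fold change −0.41 ± 0.08). Altogether 5 of 18 genes were higher and 2 lower, with 1 lower without vehicle replicate 1, vehicle replicate 2 or rosiglitazone replicate 3.

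**Figure D2:**
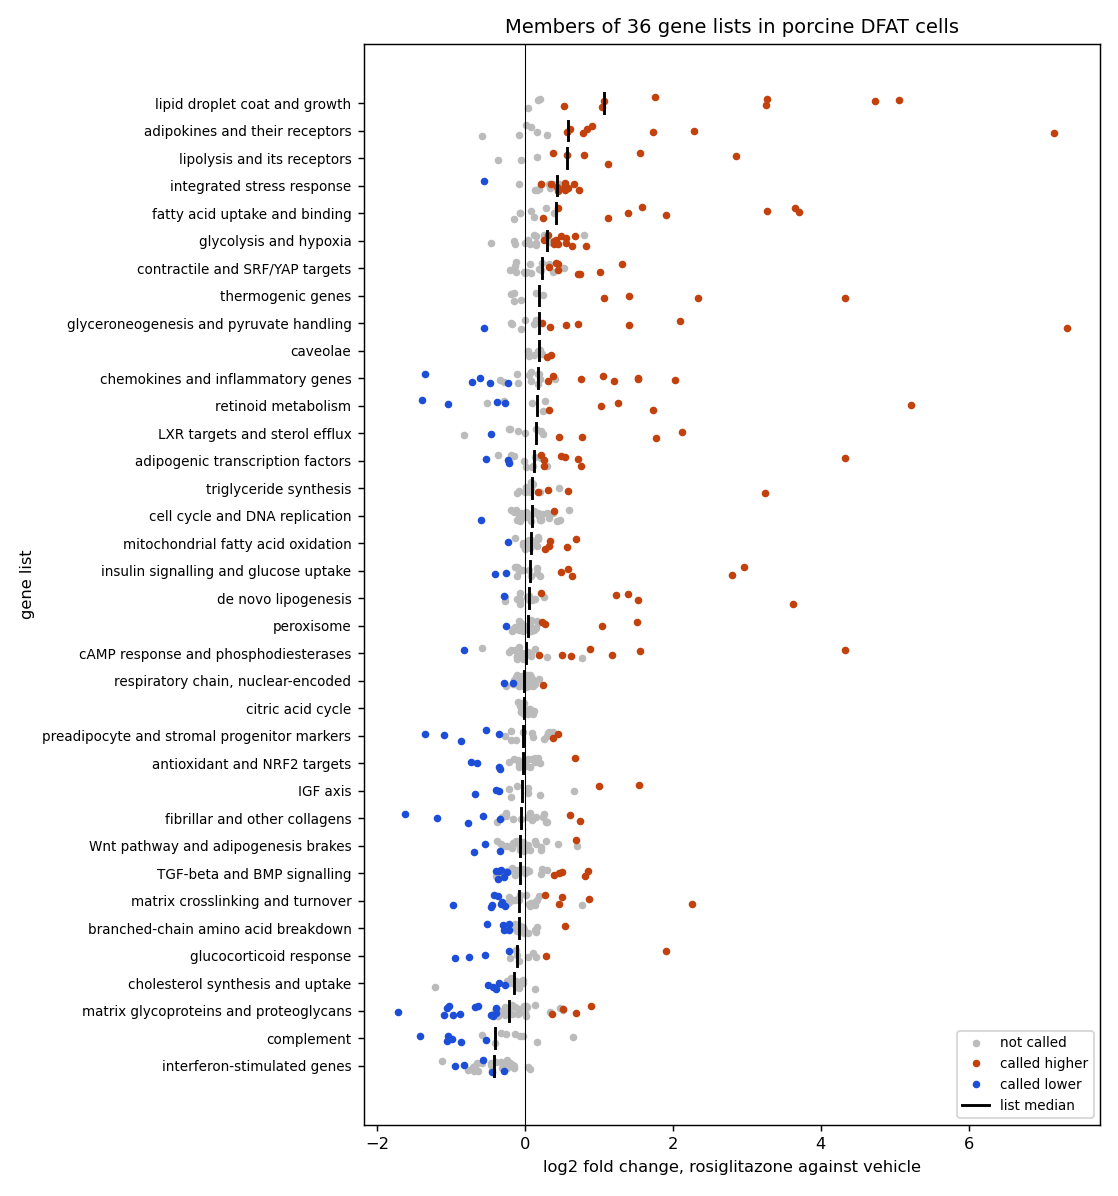
Log2 fold changes (rosiglitazone against vehicle) of the tested members of 36 gene lists, ordered by list median (black bars), with called rises in orange, called falls in blue and other members in grey. The lipid droplet list has the highest median, 1.07, and the interferon-stimulated list the lowest, −0.42; members of the citric acid cycle and the respiratory chain lie near 0.

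In peroxisomes, PEX11A, which makes peroxisomes divide, had 291, 306 and 331 normalized counts with vehicle and 932, 935 and 790.3 with rosiglitazone (log2 fold change 1.51 ± 0.11 (SE), adjusted p = 2.19e-08), and ACAA1, the peroxisomal thiolase, had 2253, 2216 and 2168 with vehicle and 4948, 4177 and 4517 with rosiglitazone (log2 fold change 1.04 ± 0.06). HSD17B4, the second enzyme of peroxisomal oxidation, fell (log2 fold change −0.26 ± 0.06). Of 28 peroxisomal genes 4 were higher and 1 lower; 2 were higher without vehicle replicate 2, and without rosiglitazone replicate 2 the counts were 2 and 2. The median over all 28 lay near 0, at 0.04, and at −0.046 without rosiglitazone replicate 2. In mitochondrial fatty acid oxidation 5 of 21 genes were higher and 1 lower. CPT1A, the carnitine transferase that admits fatty acids to mitochondria, rose from 3774–4269 to 6211–6881 (log2 fold change 0.69 ± 0.08). SLC25A20, the carnitine carrier, rose by 0.33 ± 0.06, ECI2, an isomerase for unsaturated fatty acids, by 0.57 ± 0.08 and ETFDH, which passes the electrons on, by 0.33 ± 0.06. The called fall, ACAA2, had a log2 fold change of −0.23 and lost its call without vehicle replicates 1, 2 or 3 or rosiglitazone replicates 2 or 3, each left out singly.

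Downstream of that step, 0 of 17 citric acid cycle genes passed the test in either direction, with changes between −0.09 and 0.13 and a median of −0.02. Citrate synthase (CS) had 11486, 10490 and 11358 normalized counts with vehicle and 10725, 13046 and 12170 with rosiglitazone (log2 fold change 0.11, adjusted p = 0.393). Of 63 nuclear-encoded genes of the respiratory chain 1 was higher and 2 lower, with a median of −0.01. Those 3, CYCS, NDUFA4 and NDUFS1, changed by at most 0.24 upward and −0.28 downward, and each lost its call when a single library was left out. With only vehicle and rosiglitazone fitted, 0 of 63 passed. Of 10 genes known from thermogenic fat 4 were higher: PPARGC1A and GK, given above, SLC27A2, a fatty acid transporter and acyl-CoA synthetase, with 39.7, 43.0 and 28.5 with vehicle and 194, 191 and 183 with rosiglitazone (log2 fold change 2.34 ± 0.22), and CIDEA, a droplet protein of brown fat, with 9.30, 16.8 and 19.3 with vehicle and 28.2, 33.4 and 33.6 with rosiglitazone (adjusted p = 0.0127, 0.0743 without vehicle replicate 1). CIDEA also lost its call with only the compared groups fitted (adjusted p = 0.105, limma). Without rosiglitazone replicate 2, 1 thermogenic gene was lower. PRDM16, DIO2 and COX7A1 did not pass. Of the 18 genes in this list, UCP1, COX8B, CKB and CKMT1 have no entry under those symbols in the deposited values. ELOVL3 and ADRB3 were among those under the minimum mean, so none of these was tested.

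Branched-chain amino acid breakdown, a pathway that feeds lipid synthesis in mature adipocytes, was lower in 5 of 22 genes and higher in 1, with a median of −0.08. BCKDHB, a subunit of the dehydrogenase complex that commits these amino acids to oxidation, had 600.3, 567 and 672 normalized counts with vehicle and 449.8, 469.9 and 371 with rosiglitazone (log2 fold change −0.51 ± 0.11 (SE), adjusted p = 0.0034). PPM1K, the phosphatase that activates the complex, rose from 2963–3543 to 4038–5133 (log2 fold change 0.54 ± 0.09). MCCC2, a subunit of the leucine-pathway carboxylase, fell (log2 fold change −0.29 ± 0.05). The lower count was 3 without vehicle replicate 1 or rosiglitazone replicate 1 and 2 without rosiglitazone replicate 3 or with only the compared groups fitted; without vehicle replicate 3, 2 were higher.

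Cholesterol synthesis and uptake had 0 of 24 genes higher and 5 lower, and 23 of 24 lay below 0, with a median of −0.15. HSD17B7, of the late synthesis steps, fell from 1046–1084 to 733–841 (log2 fold change −0.43 ± 0.08). Of the other called genes, TM7SF2, MVK and IDI1 each lost the call when single libraries were left out. With other genes gained or lost, the number lower was 2 without vehicle replicate 1 or rosiglitazone replicate 1, 3 without rosiglitazone replicate 3 and 7 without rosiglitazone replicate 2. Targets of LXR, the oxysterol receptor, were higher in 4 of 13 genes and lower in 1. ABCA1, which exports cholesterol to apolipoprotein A1, had 24635, 20767 and 23656 normalized counts with vehicle and 40954, 36144 and 40893 with rosiglitazone (log2 fold change 0.77 ± 0.10 (SE), adjusted p = 2.57e-05). ABCG1, which exports it to HDL, had 26.2, 24.3 and 22.4 with vehicle and 74.3, 98.4 and 84.5 with rosiglitazone (log2 fold change 1.77 ± 0.30). APOE, the apolipoprotein that takes it up, had 178, 256 and 145 with vehicle and 1088, 679 and 759 with rosiglitazone (log2 fold change 2.13 ± 0.20). The groups were separate for ABCA1, ABCG1 and APOE. NPC1, which releases cholesterol from lysosomes, fell (log2 fold change −0.46 ± 0.07), and NR1H3, LXRα itself, did not pass (log2 fold change 0.22). Without rosiglitazone replicate 2, 3 genes of this list were lower.

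Targets of the integrated stress response, the ATF4 programme of amino acid import and synthesis, were higher in 12 of 23 genes and lower in 1, with a median of 0.43. PSAT1, of serine synthesis, had 18449, 18120 and 21290 normalized counts with vehicle and 31183, 33167 and 31640 with rosiglitazone (log2 fold change 0.73 ± 0.06 (SE), adjusted p = 3.38e-07). CHAC1, which breaks down glutathione, had 1556, 1469 and 1437 with vehicle and 2204, 2844 and 2100 with rosiglitazone (log2 fold change 0.67 ± 0.11). DDIT3, the factor CHOP, rose by 0.56 ± 0.07, CTH, of cysteine synthesis, by 0.54 ± 0.10, and the amino acid transporters SLC7A5 and SLC7A1 by 0.54 ± 0.09 and 0.54 ± 0.07. SLC7A11, the cystine importer, rose by 0.68 ± 0.15. ATF4 itself changed by 0.22 (adjusted p = 0.0304), a call that was lost without rosiglitazone replicate 2 (0.0873), rosiglitazone replicate 3 (0.0754), vehicle replicate 1 (0.0603) or vehicle replicate 2 (0.128). The ATF4 call was also lost with only the compared groups fitted (0.166). NUPR1, a stress-induced chromatin protein, fell from 6722–7812 to 4453–5208. Without rosiglitazone replicate 2 the counts were 10 and 1, with a median of 0.30. Among 20 antioxidant genes SLC7A11 was the called rise, and 4 were lower: SOD3, the extracellular superoxide dismutase (−0.73 ± 0.08), GPX3, the secreted glutathione peroxidase (−0.64 ± 0.14), NQO1, the quinone reductase (−0.35 ± 0.08), and GPX1, which lost its call without vehicle replicates 1 or 2 or rosiglitazone replicate 3, each left out singly.

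Glycolysis and hypoxia genes were higher in 12 of 26 and lower in 0, with a median of 0.30. ALDOC, an aldolase, had 1797, 1426 and 1389 normalized counts with vehicle and 2748, 2899 and 2510 with rosiglitazone (log2 fold change 0.83 ± 0.10 (SE), adjusted p = 1.12e-05). HK2, the insulin-responsive hexokinase, rose by 0.56 ± 0.08, SLC2A1, the basal glucose transporter GLUT1, by 0.48 ± 0.05, and LDHA, lactate dehydrogenase, by 0.42 ± 0.09. EGLN3, a prolyl hydroxylase that HIF induces, rose by 0.64 ± 0.10. VEGFA, the angiogenic growth factor, had 6542, 6797 and 5945 with vehicle and 11248, 7394 and 10024 with rosiglitazone, where replicate 2 lay lowest (log2 fold change 0.55 ± 0.11). The higher count was 7 without vehicle replicate 2 and 9 without rosiglitazone replicate 2, and 1 gene was lower without rosiglitazone replicate 1, rosiglitazone replicate 2 or vehicle replicate 3. Of 26 genes of the cAMP response and its phosphodiesterases 7 were higher and 1 lower. NR4A3, an immediate early nuclear receptor, rose from 139–223 to 392–424, SIK1, a kinase induced by cAMP, rose by 0.62 ± 0.11, and PDE7B fell from 1325–1562 to 772–832 (log2 fold change −0.83 ± 0.10). Without vehicle replicate 2 or rosiglitazone replicate 3 the higher count was 4, and without rosiglitazone replicate 2 the lower count was 3.

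Of 39 glycoproteins and proteoglycans 12 were lower and 4 higher, with a median of −0.22, and 28 lay below 0. The small leucine-rich proteoglycans, which bind collagen fibrils and growth factors, included several falls. DCN, decorin, had 9261, 9641 and 9612 normalized counts with vehicle and 4683, 4171 and 4926 with rosiglitazone (log2 fold change −1.05 ± 0.06 (SE), adjusted p = 3.74e-09). OGN, osteoglycin, had 5121, 6014 and 6464 with vehicle and 2589, 2689 and 2966 with rosiglitazone (log2 fold change −1.09 ± 0.12). LUM, lumican, had 53793, 56814 and 60172 with vehicle and 26844, 26550 and 30037 with rosiglitazone (log2 fold change −1.03 ± 0.07). OMD and ASPN, osteomodulin and asporin, fell (log2 fold changes −0.98 ± 0.10 and −0.88 ± 0.11). PRELP, of the same family, was called higher, 0.52 ± 0.12, with an adjusted p of 0.0108 that became 0.0529 without vehicle replicate 1. OLFML2B, an olfactomedin-like secreted protein, had the largest fall of the list, from 1202–1420 to 376–420.4 (log2 fold change −1.72 ± 0.12). The basement membrane linkers NID1 and NID2 fell (log2 fold changes −0.43 ± 0.07 and −0.39 ± 0.08), as did the hyaluronan-binding VCAN (−0.46 ± 0.11). TNC, tenascin-C of wounds and tendon, rose from 51403–56984 to 88912–113422 (log2 fold change 0.89 ± 0.11). FN1, fibronectin, did not pass, with 2158250, 1992180 and 2173960 with vehicle and 2150240, 2024740 and 2298210 with rosiglitazone (log2 fold change 0.03, adjusted p = 0.947).

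**Figure D3:**
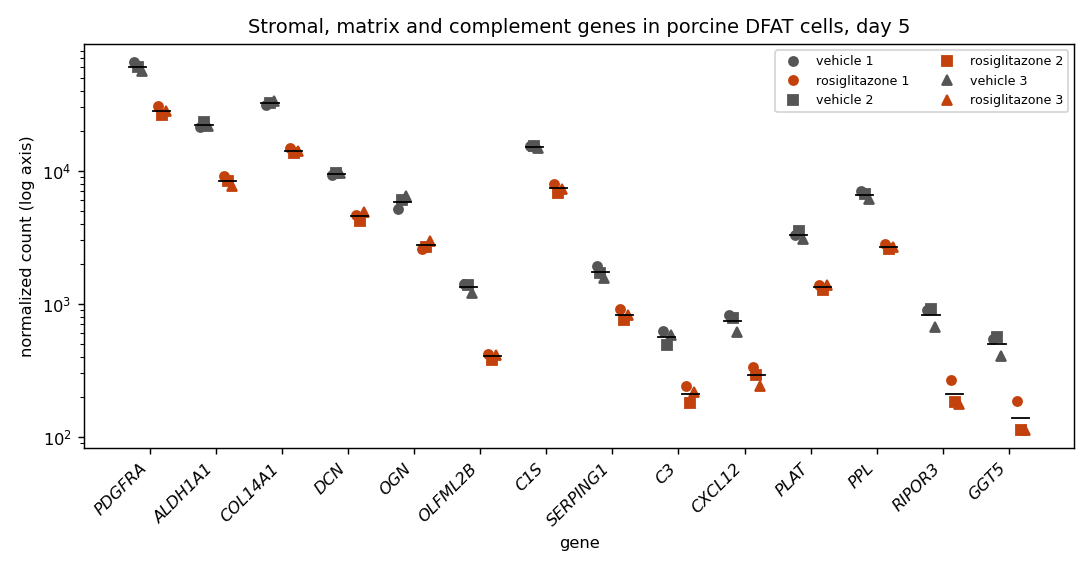
Normalized counts (log axis) of 14 stromal, matrix, complement and other genes that fell, in each vehicle (grey) and rosiglitazone (orange) DFAT library; symbols mark the replicate and black lines the group means. The groups are separate for each gene shown, for example PDGFRA at 56399 to 65376 and 26236 to 30701, and C3 at 487 to 621 and 178 to 240.

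Of 21 collagen genes 5 were lower and 2 higher. COL14A1, a fibril-associated collagen, had 31060, 32459 and 33308 normalized counts with vehicle and 14852, 13502 and 14193 with rosiglitazone (log2 fold change −1.19 ± 0.11 (SE), adjusted p = 5.26e-07). COL4A5, of basement membranes, had 3467, 3309 and 2855 with vehicle and 2035, 1786 and 1799 with rosiglitazone (log2 fold change −0.77 ± 0.08), and COL4A6, its neighbour in the genome, fell from 36.4–49.0 to 8.56–17.9. COL15A1, a collagen around capillaries and adipocytes, rose from 46373–48489 to 75401–83696 (log2 fold change 0.75 ± 0.08), and COL6A3, of the pericellular mesh of fat, from 69348–78951 to 95330–124039 (log2 fold change 0.61 ± 0.12). The main fibril collagens did not pass: COL1A1 had a log2 fold change of −0.31 ± 0.13 (adjusted p = 0.179, and 0.0344 with no variance trend) and COL3A1 of −0.37 ± 0.12 (adjusted p = 0.0553), which passed with a minimum mean of 50 (0.04), with no variance trend (0.0294), after quantile normalization (0.00145) and with the replicate block (0.0216). The lower count was 3 without vehicle replicates 1 or 2 or rosiglitazone replicates 2 or 3, each left out singly, and the higher count was 4 without rosiglitazone replicate 2. Among 30 enzymes of crosslinking and turnover 8 were lower and 5 higher. ADAMTS1 and ADAMTS4 are related proteases that cleave proteoglycans and moved apart: ADAMTS1 fell from 16931–19910 to 8345–9908 (log2 fold change −0.97 ± 0.08), and ADAMTS4 had 1694, 1538 and 989.8 with vehicle and 9152, 6320 and 4908 with rosiglitazone (log2 fold change 2.26 ± 0.22). MMP2, gelatinase A, fell (log2 fold change −0.45 ± 0.10). Of the lysyl oxidases that crosslink collagen, LOXL1 fell (log2 fold change −0.42 ± 0.08) and LOXL4 rose by 0.86 ± 0.09. The lower count of these enzymes was 4 without vehicle replicate 1 and 5 without rosiglitazone replicate 3.

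Complement genes were lower in 6 of 15 and higher in 0, with a median of −0.41 and 13 members below 0. C3, the central component, had 621, 487 and 587 normalized counts with vehicle and 239.7, 178 and 217 with rosiglitazone (log2 fold change −1.42 ± 0.17 (SE), adjusted p = 2e-05). C1S, a protease of the classical pathway, had 15362, 15352 and 14866 with vehicle and 7968, 6831 and 7333 with rosiglitazone (log2 fold change −1.04 ± 0.10), and its partner C1R had 8841, 8553 and 7684 with vehicle and 4496, 3879 and 4272 with rosiglitazone (log2 fold change −0.99 ± 0.13). SERPING1, the inhibitor of both proteases, fell from 1566–1909 to 755–907 (log2 fold change −1.05 ± 0.12), so enzymes and inhibitor moved the same way. MASP1, of the lectin pathway, fell (log2 fold change −0.86 ± 0.06), as did C2 (−0.53 ± 0.10). Without rosiglitazone replicate 2 the counts were again 6 and 0.

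Interferon-stimulated genes had the lowest median of the 36 lists, −0.42, with 28 of 30 members below 0, but their libraries varied and 5 passed the test. IFI6 had 1429, 2147 and 2075 normalized counts with vehicle and 933, 1122 and 841 with rosiglitazone (log2 fold change −0.95 ± 0.18 (SE), adjusted p = 0.00134), IFI44L had 2824, 3666 and 3914 with vehicle and 2125, 2290 and 2586 with rosiglitazone (log2 fold change −0.56 ± 0.12), and STAT2, a factor of the interferon response, fell (log2 fold change −0.28 ± 0.06). IFIT1 had 982, 1481 and 1412 with vehicle and 489.6, 1042 and 935 with rosiglitazone, with overlapping groups (adjusted p = 0.31). The lower count was 3 without vehicle replicate 2, vehicle replicate 3 or rosiglitazone replicate 3, 7 without rosiglitazone replicate 2 and 9 with only the compared groups fitted. Inflammatory genes went both ways, 8 of 25 higher and 5 lower. LIF, a cytokine of the interleukin 6 family, had 45.7, 59.8 and 37.7 with vehicle and 153, 106 and 157 with rosiglitazone (log2 fold change 1.52 ± 0.21). PTGS1, cyclooxygenase 1, rose from 154–205 to 363–457 and TNFAIP6, a hyaluronan-modifying protein, from 785–871 to 1476–1883. CXCL12, a chemokine of stromal cells, had 829, 782 and 614 with vehicle and 336, 294 and 240.3 with rosiglitazone (log2 fold change −1.35 ± 0.15), VCAM1, an adhesion molecule, fell (log2 fold change −0.72 ± 0.10), as did IL33, an alarmin of stromal cells (−0.62 ± 0.12). IL6 did not pass, with 134, 157 and 81.5 with vehicle and 185, 179 and 123 with rosiglitazone. Without vehicle replicate 2 the counts were 5 and 3.

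Of 19 markers of preadipocytes and stromal progenitors 5 were lower and 2 higher, with a median of −0.03. PDGFRA, the receptor that marks fat progenitors (chromosome 8, 40967493 to 41021441, plus strand), had 65376, 60254 and 56399 normalized counts with vehicle and 30701, 26236 and 27978 with rosiglitazone, a 2.14-fold lower mean (log2 fold change −1.10 ± 0.09 (SE), adjusted p = 3.13e-07). PDGFRB had 40506, 42343 and 34524 with vehicle and 37552, 29278 and 31013 with rosiglitazone, with overlapping groups, and did not pass (log2 fold change −0.27, adjusted p = 0.071). PRRX1, a mesenchymal factor, fell (log2 fold change −0.35 ± 0.07), as did S100A4 (−0.52 ± 0.10), and ITGA5, the fibronectin receptor subunit, rose by 0.45 ± 0.07. The higher count was 1 without vehicle replicate 1, vehicle replicate 2 or rosiglitazone replicate 3. DLK1, the classic preadipocyte inhibitor, was at 0 in 5 of the 6 libraries and at 0.934 in the sixth. Among 27 Wnt genes and brakes of adipogenesis, 3 were lower, the receptors FZD1 (−0.70 ± 0.12) and LRP6 (−0.33 ± 0.07) and the secreted modulator SFRP2 (−0.54 ± 0.07), and the receptor FZD4 was higher (0.69 ± 0.07). In that list 5 were lower without vehicle replicate 3 and 2 higher without rosiglitazone replicate 1.

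TGF-β and BMP genes moved in both directions, 5 of 28 higher and 6 lower. The ligands TGFB3 and INHBA rose, TGFB3 from 494–539 to 829–1055 and INHBA from 198–277 to 346–498 (log2 fold changes 0.82 ± 0.09 and 0.85 ± 0.16), while the signal transducer SMAD3 fell (log2 fold change −0.29 ± 0.06), as did LTBP3, which stores the latent ligand (−0.39 ± 0.08). The counts were 3 and 3 without rosiglitazone replicate 3, and the lower count was 3 without vehicle replicate 1 or vehicle replicate 2. In the IGF axis, IGF1 fell from 4116–4438 to 2987–3674, as did the binding protein IGFBP4 (−0.68 ± 0.14) and the protease PAPPA, which cleaves IGFBP4 (−0.35 ± 0.07). IGFBP3 and STC2, an inhibitor of PAPPA, rose by 1.54 ± 0.30 and 1.00 ± 0.09; 2 of 12 genes were higher and 3 lower. Of 13 glucocorticoid-responsive genes 4 were lower and 2 higher; both media held dexamethasone. HSD11B1, which regenerates active glucocorticoid, had 61.7, 80.3 and 71.3 with vehicle and 34.6, 30.0 and 45.8 with rosiglitazone (log2 fold change −0.95 ± 0.20), and CRISPLD2 and SGK1 fell (log2 fold changes −0.75 ± 0.08 and −0.54 ± 0.10). FKBP5, TSC22D3 and PER1 did not pass, and 1 was higher without vehicle replicate 1 or 3 or rosiglitazone replicate 2 or 3, each left out singly. In the cell cycle list 1 of 29 genes was higher, CCND1 (0.39 ± 0.09), and 1 lower, the inhibitor CDKN2C (−0.60 ± 0.10); 2 were higher without vehicle replicate 3 or rosiglitazone replicate 1, and 2 lower without rosiglitazone replicate 2.

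Of 14 retinoid genes 5 were higher and 4 lower. RBP5, an intracellular retinol carrier, had 19.4, 22.4 and 17.3 normalized counts with vehicle and 905, 621 and 793 with rosiglitazone (log2 fold change 5.21 ± 0.17 (SE), adjusted p = 5.92e-13). RETSAT, a retinol saturase that PPARγ regulates in fat, rose from 5383–5911 to 10888–12896 (log2 fold change 1.03 ± 0.06), and CYP26B1, which degrades retinoic acid, from 339–432 to 873–945 (log2 fold change 1.26 ± 0.12). ALDH1A1, which makes retinoic acid (chromosome 1, 226161299 to 226217308, minus strand), had 21249, 23148 and 21873 with vehicle and 9125, 8438 and 7645 with rosiglitazone, a 2.63-fold lower mean (log2 fold change −1.40 ± 0.08 (SE), adjusted p = 1.47e-09). The groups were separate for each of these 4 genes. DHRS3, a retinal reductase, was called lower (−1.04 ± 0.25, adjusted p = 0.0119), and lost the call without vehicle replicate 2 (0.0625) or rosiglitazone replicate 3 (0.0552). The lower count was 1 without vehicle replicate 2 and 2 without rosiglitazone replicate 3.

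Contractile genes and targets of SRF and YAP, which respond to actin tension, were higher in 8 of 23 and lower in 0, with a median of 0.24. ACTA2, smooth muscle actin, had 55633, 55159 and 70716 normalized counts with vehicle and 78526, 127515 and 97458 with rosiglitazone (log2 fold change 0.72 ± 0.14 (SE), adjusted p = 0.0015). ACTG2, a closely related actin whose reads may be shared with it, had 8608, 8948 and 10357 with vehicle and 14108, 26517 and 17700 with rosiglitazone (log2 fold change 1.02 ± 0.16). MYL9, the myosin light chain, did not pass, with 14871, 14910 and 16321 with vehicle and 15397, 28044 and 18529 with rosiglitazone (adjusted p = 0.124). In each of these, replicate 2 lay well above the other rosiglitazone libraries. CCN2, a matricellular target of YAP, had 23205, 18074 and 28083 with vehicle and 38879, 32739 and 42985 with rosiglitazone (log2 fold change 0.74 ± 0.16), and ANKRD1, another YAP target, had 61.7, 58.8 and 62.1 with vehicle and 132, 149.8 and 178 with rosiglitazone (log2 fold change 1.31 ± 0.15); in neither was replicate 2 the highest. Without rosiglitazone replicate 2, 6 genes were higher with a list median of 0.08, and 5 were higher without vehicle replicate 2 or rosiglitazone replicate 3. The summed level of 7 mural or smooth muscle markers, led by ACTA2, lay at 71833 to 86430 with vehicle and 105822 to 150622 with rosiglitazone. Of the 7, 3 were called higher, among them MYH11, which lost its call in 9 of 15 other settings. CSPG4 lay at 3200 to 3684 with vehicle and 7482 to 8229 with rosiglitazone, with separate groups, and replicate 2 was its lowest rosiglitazone library. KCNJ8 lay the other way without a call, at 134 to 158 with vehicle and 98.7 to 115 with rosiglitazone, and NOTCH3, RGS5 and DES overlapped. The part of such cells in these rises was not tested.

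**Figure D4:**
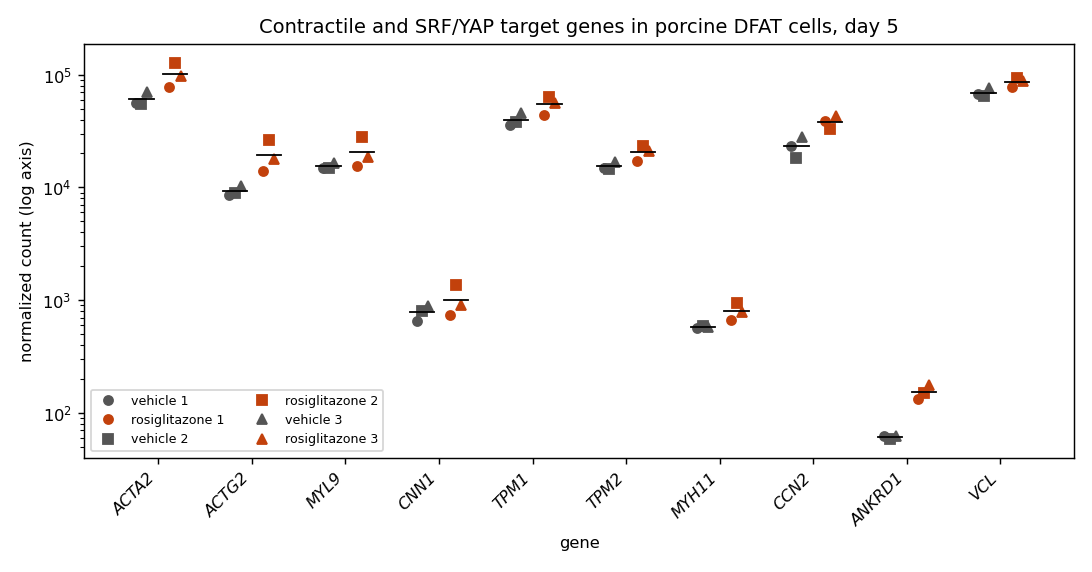
Normalized counts (log axis) of 10 contractile genes and SRF or YAP targets in each vehicle (grey) and rosiglitazone (orange) DFAT library; squares mark replicate 2 and black lines the group means. For ACTA2 rosiglitazone replicate 2 lies at 127515, above the other rosiglitazone libraries at 78526 and 97458, and for ANKRD1 it lies between them.

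Several of the largest changes fell outside the lists. AQP3, a channel for water and glycerol, had 168, 221 and 165 normalized counts with vehicle and 4426, 3321 and 3777 with rosiglitazone (log2 fold change 4.37 ± 0.13 (SE), adjusted p = 1.85e-13). SGK2, a serum- and glucocorticoid-related kinase, had 22.0, 20.5 and 18.3 with vehicle and 882, 348 and 753 with rosiglitazone, with replicate 2 the lowest of the rosiglitazone libraries (log2 fold change 4.85 ± 0.27). N4BP3 rose from 19.3–33.0 to 343–478. Among the falls were PLAT, tissue plasminogen activator, with 3290, 3522 and 3082 with vehicle and 1379, 1269 and 1379 with rosiglitazone (log2 fold change −1.30 ± 0.07). PPL, periplakin of desmosomes, fell from 6150–7023 to 2600–2813 and C1QTNF6, a relative of adiponectin, from 3381–3737 to 1347–1657. RIPOR3, GGT5, an enzyme of leukotriene and glutathione breakdown, and MRGPRF, an orphan receptor, fell (log2 fold changes −1.99 ± 0.22, −1.89 ± 0.20 and −1.25 ± 0.18). Over all genes, 1.03% were called and at least 2-fold higher and 0.466% called and at least 2-fold lower. With only the compared groups fitted, 931 genes were called in place of 1604.

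The rosiglitazone libraries were also compared directly with the libraries given dicoumarol and magnolol together and with those given magnolol alone; both comparisons use the rosiglitazone libraries of the vehicle comparison. Against the combination 17% of genes were called (8.24% higher with rosiglitazone and 8.79% lower), and against magnolol 13.1% (6.14% and 6.91%). Same-numbered libraries deviated together in both comparisons, and with the replicate number as a block 3031 in place of 1934 genes were called against magnolol. PCK1 had 562, 432 and 377 normalized counts with the combination and 212, 210.2 and 130.5 with magnolol, and the rosiglitazone libraries given above were higher than either (log2 differences 2.10 ± 0.49 and 3.42 ± 0.49, adjusted p = 0.00601 and 0.000106). FABP4 differed by 1.12 ± 0.12 and 2.24 ± 0.12, CIDEC by 1.17 ± 0.14 and 1.99 ± 0.14, and ANGPTL4 by 1.37 ± 0.15 and 1.83 ± 0.15, all higher with rosiglitazone. For PLIN1 the combination had 3969, 3829 and 3910 and the difference of 0.26 ± 0.10 did not pass (adjusted p = 0.103), whereas that from magnolol, 1.15 ± 0.10, did. PPARG did not pass against the combination (−0.16 ± 0.07) or against magnolol (0.14 ± 0.07).

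Several matrix genes were lower with rosiglitazone than with the combination or magnolol. OLFML2B had 2605, 2175 and 2766 normalized counts with the combination and 2834, 2271 and 2220 with magnolol, above the rosiglitazone libraries throughout (log2 differences −2.64 ± 0.12 and −2.59 ± 0.12). ELN, elastin, which did not pass against vehicle, had 269, 359 and 364 with the combination and 93.6, 71.9 and 57.0 with rosiglitazone (log2 difference −2.16 ± 0.22). COL11A1, a minor fibril collagen, differed by −1.60 ± 0.12 from the combination and −1.14 ± 0.12 from magnolol, and OGN by −1.35 ± 0.12 and −1.51 ± 0.12. COL11A1 did not pass against vehicle (log2 fold change 0.285, adjusted p = 0.1615, limma). With the replicate block it passed there as higher (0.0149). PI15, a secreted protease inhibitor, was higher with rosiglitazone by 2.56 ± 0.20 and 2.02 ± 0.20. Against vehicle PI15 rose by 0.78 ± 0.20, a call lost without vehicle replicate 2 (adjusted p = 0.0882) or rosiglitazone replicate 1 (0.072). DCN did not pass against the combination (0.05 ± 0.06, adjusted p = 0.689), and ACTA2 passed against neither treatment (−0.14 ± 0.14 and 0.11 ± 0.14).

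The contrast of rosiglitazone and vehicle in 3T3-L1 cells, normalized and fitted apart, is set beside these values without a test between the systems. Those libraries were also of day 5. The make-up of their medium was not compared with that of the DFAT cells, so differences of species, cell and medium cannot be told apart. Of 14819 genes 9368 were matched by symbol, and among them 23.2% were called higher and 23.4% lower in 3T3-L1 cells. Of the 860 genes higher in DFAT cells 601 were matched, and 28.8% of these were higher and 32.1% lower in 3T3-L1 cells. Of the 744 lower in DFAT cells 516 were matched, and 11.2% were higher and 50.2% lower. Genes of the adipocyte programme rose in both: ADIPOQ by 7.15 ± 0.22 and 5.06 ± 0.53, PLIN1 by 5.05 ± 0.10 and 4.74 ± 0.38, and CIDEC by 3.26 ± 0.14 and 6.77 ± 0.53 on the log2 scale, DFAT cells first. CEBPA rose by 0.76 ± 0.14 in DFAT cells and 3.15 ± 0.39 in 3T3-L1 cells. ELOVL6 rose in DFAT cells and had 0.04 ± 0.18 in 3T3-L1 cells, where it did not pass. The list counts that follow are over matched genes in 3T3-L1 cells and over all tested members in DFAT cells. In DFAT cells fewer of all tested genes were called, 5.8% higher and 5.02% lower. Citric acid cycle genes were higher in 16 of 16 matched genes in 3T3-L1 cells and respiratory chain genes in 51 of 51, beside 0 of 17 and 1 of 63 in DFAT cells. Cholesterol synthesis genes were higher in 16 of 22 and lower in 0 there, beside 0 and 5 of 24 here. Contractile genes were higher in 1 of 21 and lower in 10 there, beside 8 and 0 of 23 here. Matrix glycoproteins were lower in 21 of 36 matched genes there, beside 12 of 39 here, and complement genes in 4 of 9, beside 6 of 15 here.

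**Figure D5:**
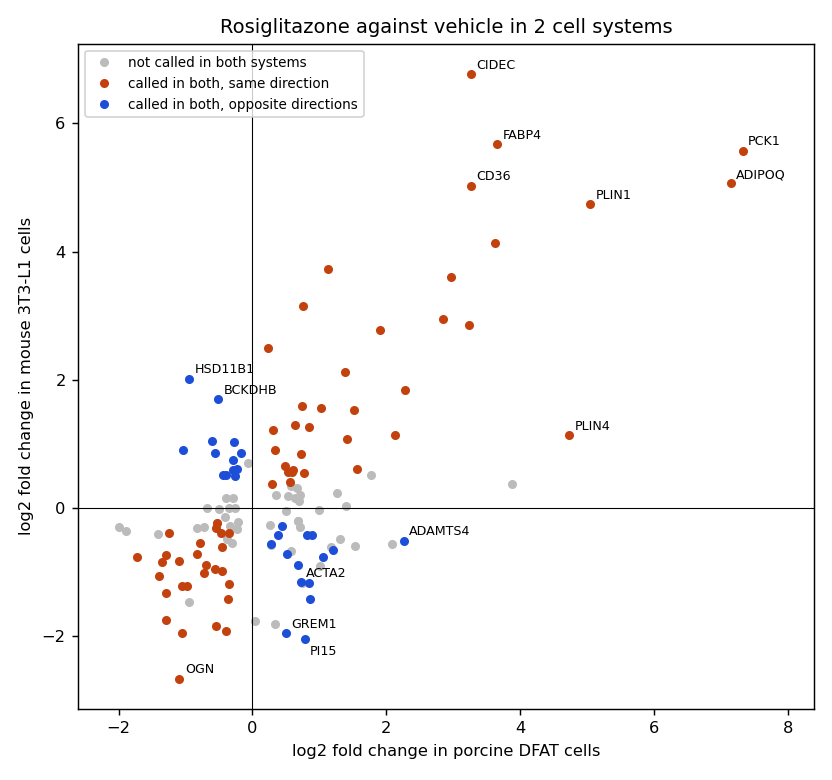
Log2 fold changes of rosiglitazone against vehicle for 137 named genes matched by symbol, in porcine DFAT cells (horizontal) and mouse 3T3-L1 cells (vertical), fitted apart. Of 90 genes called in both systems 28 had opposite directions (blue), among them HSD11B1 and ACTA2; the adipocyte genes lie at the upper right.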

How the data were processed

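RNA of porcine DFAT cells was sequenced after poly(A) selection with a strand-marking kit, per the labels' protocols; whether counting used strand is not given in the sources used here. Per the submitters' processing notes, the tools were STAR, DESeq2 and bcl2fastq 2.19.1.403 and, as the genome build, mouse GRCm38; the build of the pig coordinates is not given in the sources used here. Values as deposited by the authors are signal per gene and library, each count divided by a DESeq2 size factor. From the deposited values, limma 3.58.1 in R 4.3.3 was fitted to log2(value + 1) of 14819 of 34307 genes, those whose mean over the 15 DFAT libraries reached 10, all 5 groups in 1 model with a variance trend. A gene low with vehicle could thus be tested because of the treated groups alone. Two-sided p-values were adjusted by the Benjamini-Hochberg method over all genes tested and called under 0.05. The script was tested on simulated data. Tables were made with Python 3.11.15, numpy 2.4.6 and pandas 2.3.3, and figures with matplotlib 3.10.9; the TMM factors of 1 alternative were computed in R. The median standard error of a log2 fold change was 0.0992.

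Members and the 36 gene lists, of 878 different genes with 744 tested, were chosen with earlier results of these data known, so no p-value was adjusted over a list. Named genes were the 10 largest called rises and falls with a mean of at least 100 and separate groups, up to 3 called members per list and direction with a mean of at least 50, a panel of 23 genes, and the 5 largest differences in each direction from the combination and from magnolol. Other called list members, and list members that did not pass, were picked after their values were seen. Deviations of same-numbered rosiglitazone libraries correlated at 0.105 to 0.288 with those of the combination and 0.144 to 0.268 with those of magnolol. The numbers may therefore pair those libraries. The labels do not say what a number marks, and such a pairing was not tested. Alternatives were other pseudocounts, filters and normalizations, no variance trend, only the compared groups, a replicate block and leaving out each library.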

Additional observations from a re-analysis of the deposited data

Results flagged for a closer look

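Among 90 named genes called in both DFAT and 3T3-L1 cells 28 changed in opposite directions, and for 15 of these every rosiglitazone library lay on one side of the vehicle libraries in DFAT cells and on the other side in 3T3-L1 cells, with a change of at least 0.5 on the log2 scale in each. The difference between the systems was not tested, and their media were not compared. Higher in DFAT cells and lower in 3T3-L1 cells were ACTA2 (log2 fold changes 0.72 and −1.15), ADAMTS4 (2.26 and −0.51), GREM1, a BMP antagonist (0.51 and −1.95), INHBA (0.85 and −1.18), LOXL4 (0.86 and −1.42), PI15 (0.78 and −2.04), PRELP (0.52 and −0.71), PTGS1 (1.21 and −0.65), SLC7A11 (0.68 and −0.89) and TNFAIP6 (1.05 and −0.76). Lower in DFAT cells and higher in 3T3-L1 cells were BCKDHB (−0.51 and 1.70), CDKN2C (−0.60 and 1.05), DHRS3 (−1.04 and 0.90), HSD11B1 (−0.95 and 2.02) and NUPR1 (−0.56 and 0.86). The DFAT call of GREM1 was lost without vehicle replicate 2 (adjusted p = 0.0994), rosiglitazone replicate 2 (0.0505) or rosiglitazone replicate 3 (0.094), with no filter on low values (0.0678) and with no variance trend (0.0577). Those of DHRS3, PI15 and PRELP were also lost without single libraries, as given above.

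List genes under the minimum mean were left out of the fit, and 3 of them had a mean of at least 10 normalized counts with rosiglitazone and every rosiglitazone library above every vehicle library. UCP3, a mitochondrial carrier of muscle and fat that PPARs induce, was listed at 0 in all vehicle libraries and at 24.4, 16.3 and 20.4 normalized counts with rosiglitazone, a mean of 20.3. CXCL8, the chemokine interleukin 8, had 3.38, 5.60 and 2.04 with vehicle and 29.5, 15.4 and 14.3 with rosiglitazone, a mean of 19.7. RDH5, a retinol dehydrogenase, had 0, 0 and 2.04 with vehicle and 15.4, 12.8 and 14.3 with rosiglitazone, a mean of 14.2. None of these 3 was tested. The rule looked for rises only. CDKN1C of the cell cycle list, also untested, lay the other way with separate groups. It had 11.8, 9.34 and 13.2 with vehicle and 3.84, 5.14 and 1.02 with rosiglitazone.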

How the results depend on the processing

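With only the compared groups fitted, 931 genes were called against vehicle, 522 higher and 409 lower, of which 914 were among the 1604 called with all groups; 1336 were called against the combination and 1172 against magnolol. Same-numbered rosiglitazone and vehicle libraries did not deviate together (correlations of −0.306 to 0.0763). With the replicate block 2368 genes were called, 1228 higher and 1140 lower. Against magnolol the block gave 3031 and against the combination 3697. It ended no call of the genes named, in either comparison, and some others then passed. Leaving out 1 library gave 1125 (without vehicle replicate 2) to 1849 (without rosiglitazone replicate 2), and 48.9% to 58.8% of calls were then higher. Of 253 called genes named or counted in a list, 179 kept the call in every setting that tested them, 74 lost it in at least 1 and 0 turned sign with a call. Of 36 list medians 8 turned sign in some setting. The list counts under each setting were added after seeing the data. A count test was not run, since 89.8% to 90.4% of low values came out whole within 0.02 of a read. The causes were not tested.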
